A study of Mus musculus with 12 samples.

Results

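Cytochrome P450 enzymes were followed at the RNA level in 12 mouse kidneys, 4 controls and 8 taken after ischemia, to ask how the family stood one day after the injury and whether the 2 sets of ischemic kidneys differed. A gene was taken as a member when its symbol began with Cyp and a digit, it was neither Cyp27b1 nor Cyp24a1, and it had 10 or more counts in at least 4 of the 12 kidneys. This gave 35 members of 23420 genes in the count table. Another 54 P450 symbols had 0 counts in all 12 kidneys and 11 had some counts but too few, so that 100 P450 symbols were listed in all. At the edge of the rule, 3 members reached 10 counts in exactly 4 kidneys and 2 symbols left out reached it in 3.

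All kidneys came from male C57BL/6J mice, young adults per the study's methods. The controls were kidneys removed at nephrectomy per the study's methods, although the label on treatment (20 min of clamping of the renal pedicle, kidney taken after 24 h) is worded alike for all 12 samples. The ischemic kidneys were collected 24 h after ischemia in conscious mice or in mice under general anaesthesia, but their 2 labels contradict each other. Set A is titled anaesthetised and has conscious in its group field, and set B is titled conscious and has anaesthetised in that field, so no difference between the sets is given a direction with respect to anaesthesia. Each group held 4 kidneys. Clamping, reperfusion and the time since surgery differ together between control and ischemic kidneys and cannot be told apart. The study's methods also describe surgery to place the clamp on the left side, buprenorphine and, in some mice, removal of the right kidney. Which of these the controls had is not stated, so their part cannot be told apart either.

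Total counts per kidney lay between 15367342 and 44793350. The first principal component, 26.5% of the variance, set controls apart from ischemic kidneys, and the second, 12.2%, set replicate 4 of set B apart from the other 11. That kidney had the lowest summed proximal tubule marker level (430 CPM, counts relative to the library size after TMM scaling) of the 12. It also had the highest summed thick ascending limb level of the ischemic kidneys (738 CPM against 256 to 374) and the highest collecting duct level of all (71.5 CPM against at most 37.8). Counts of calls in set B are therefore also given without it, as are single genes where it lay far from the rest of its set or where leaving it out changed the call. The counts held few low values. Of the 420 values of the members, 79 were 0, only 12 lay between 1 and 9, and 329 were 10 or more, so that a 0 often stood beside 10 or more counts in a replicate. It is not given in the sources used here whether low counts were removed from the table before deposit. If they were, a 0 need not mean fewer than 3 counts, and the bounds taken at 3 counts per kidney may not hold. These bounds cover counting error only. As a check of tissue, the proximal tubule markers Lrp2, Slc34a1 and 7 others were all present, the 3 fat markers and the 2 of 4 listed blood markers that were in the table were at 0 in every kidney, and the summed level of 6 adrenal markers did not pass 1.96 CPM in any kidney. The sum of 6 liver markers lay between 15.9 and 24.2 CPM in the controls, most of it Ttr (mean 18.6 CPM), between 2.47 and 7.79 CPM in set A, and at 6.199, 0, 0.435 and 0.254 CPM in set B. Its part in the P450 results was not tested.

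P450 enzymes are heme proteins that insert 1 atom of oxygen into their substrate, with electrons handed over by P450 reductase in the endoplasmic reticulum or by ferredoxin in mitochondria. In the kidney they are found above all in the proximal tubule, where families 1 to 3 act on drugs, steroids and arachidonic acid, family 4 hydroxylates the far end of fatty acids including arachidonic acid, and single enzymes make or remove sterols, retinoic acid and the precursors of vitamin D hormone. Several mouse subfamilies arose by recent gene duplication, so that neighbouring copies share long stretches of sequence.

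The P450 message was lower after ischemia in both sets, and most of that fall was Cyp4b1. Summed over the 35 members, the TMM-scaled level was 4090, 5266, 5176 and 5343 CPM in the controls, 1066, 1479, 898 and 1136 CPM in set A and 1185, 1024, 956 and 610 CPM in set B. Every ischemic kidney lay below every control, and sets A and B overlapped. The mean was 4969 ± 590 CPM (SD, n = 4) in the controls. It was 1145 ± 244 CPM for set A, 4.34-fold lower, and 944 ± 242 CPM for set B, 5.26-fold lower. Without replicate 4 the mean of set B was 1055 CPM. Without Cyp4b1 the sum of the other 34 members went from 1118 ± 83.3 CPM to 644 ± 130 CPM in set A, 1.74-fold lower, and to 493 ± 116 CPM for set B, 2.27-fold lower. These sums are descriptions and carry no test. The proximal tubule markers moved with them. All 9 fell in both sets, and their sum went from 7055 CPM (range 6712 to 7470) to 892 CPM (704 to 1283) in set A, 7.91-fold lower, and 842 CPM (430 to 1386) in the kidneys of set B, 8.38-fold lower. Of 2 thick ascending limb markers Slc12a1 fell, with means of 1512, 180 and 256 CPM in controls, set A and set B (165 CPM in set B without replicate 4), while Umod did not pass, with means of 115, 128 and 128 CPM. The sum of 2 distal tubule markers was 1.57-fold and 1.55-fold lower, and 1 of the 2 passed the threshold in each set. Calb1 was below every control in all ischemic kidneys (488 to 719 CPM in controls, 109 to 375 in set A, 85.2 to 215 in set B). Slc12a3 overlapped the controls in both sets (803 to 1125, 731 to 979 and 675 to 1021 CPM). The sum of 5 injured tubule markers, all higher in both sets, went from 242 CPM (212 to 266) to 2103 (1974 to 2232) and 1584 (1537 to 1691). Most of it was Krt8 (210 to 260 CPM in the controls, 1785 to 2068 in set A, 1342 to 1527 in set B). The part of these shifts in the P450 results was not tested, and in whole kidney RNA fewer cells of a type and less RNA per cell cannot be told apart.

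**Figure D1:**
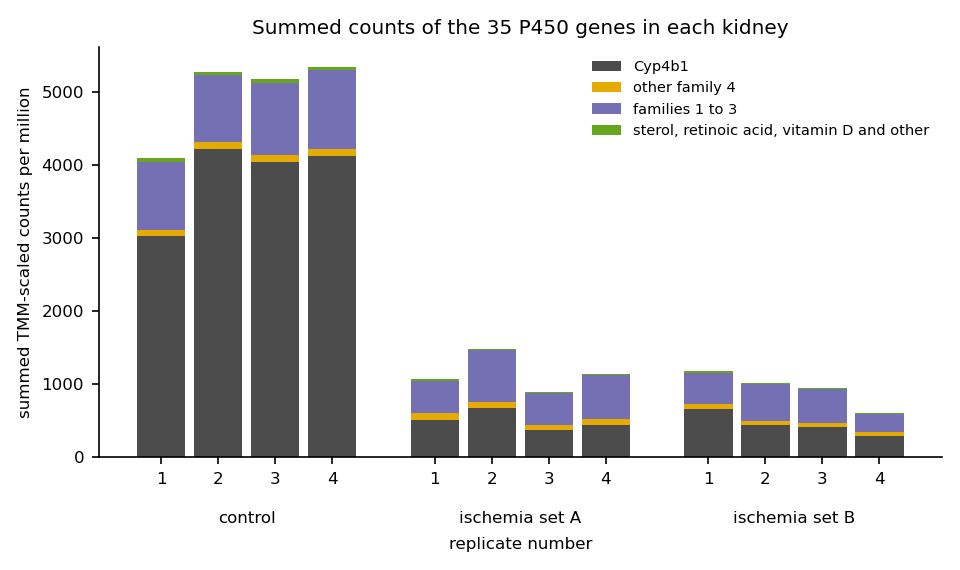
Summed TMM-scaled CPM of the 35 P450 members in each kidney (vertical axis, linear from 0), with 1 stacked bar for each of the 4 replicates of the controls, set A and set B. Cyp4b1, the dark part, makes up most of the control bars (3028 to 4222 CPM), and all ischemic bars (610 to 1479 CPM) are lower than all control bars (4090 to 5343 CPM).

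Of the 35 members, 33 passed the filter on low counts and were tested among 11664 genes; Cyp26c1 and Cyp39a1 did not pass. Against control, 11 members fell, 2 rose and 20 did not pass the threshold in set A (edgeR adjusted p below 0.05), beside 11.7% of all genes tested that fell and 10.5% that rose. In set B, 10 fell, 3 rose and 20 did not pass, beside 11.9% and 10.9% of all genes. Without replicate 4 of set B these counts were again 11 and 2 (set A), 10 and 3 (set B). In the exact permutation test of CPM (two-sided, 4 kidneys against 4, smallest p possible 0.0286) that smallest p was reached by 16 members in set A, and by 14 for set B, which are those whose groups did not overlap. Of these, 14 were lower and 2 higher in set A, beside 15.7% and 12.6% of all genes tested, and 13 were lower and 1 higher in set B, beside 15.1% and 11.6%. These shares are descriptions, since part of the members met the rule only with the group in which they are high. Fewer than 4 ischemic kidneys had 10 or more counts in 8 members, of which Cyp2d12 and Cyp7b1 fell in both sets. In another 4 members fewer than 4 controls had such counts. Of these, Cyp4a14 rose in both sets and Cyp2s1 rose in set B, and both met the rule only with ischemic kidneys. The other 23 members had such counts in all 4 controls and in at least 4 ischemic kidneys. Of them 9 fell and 1 rose in set A, and 8 fell and 1 rose in set B. The median log2 fold change of the tested members was -1.03 for set A, and for set B it was -1.43, where the median over all genes tested was -0.02 in both, and it is unchanged with Cyp2d12 and Cyp7b1 set to their bounds in set B. The median SE of the log2 fold change was 0.39 among members called in set A and 1.45 among those not called.

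**Figure D2:**
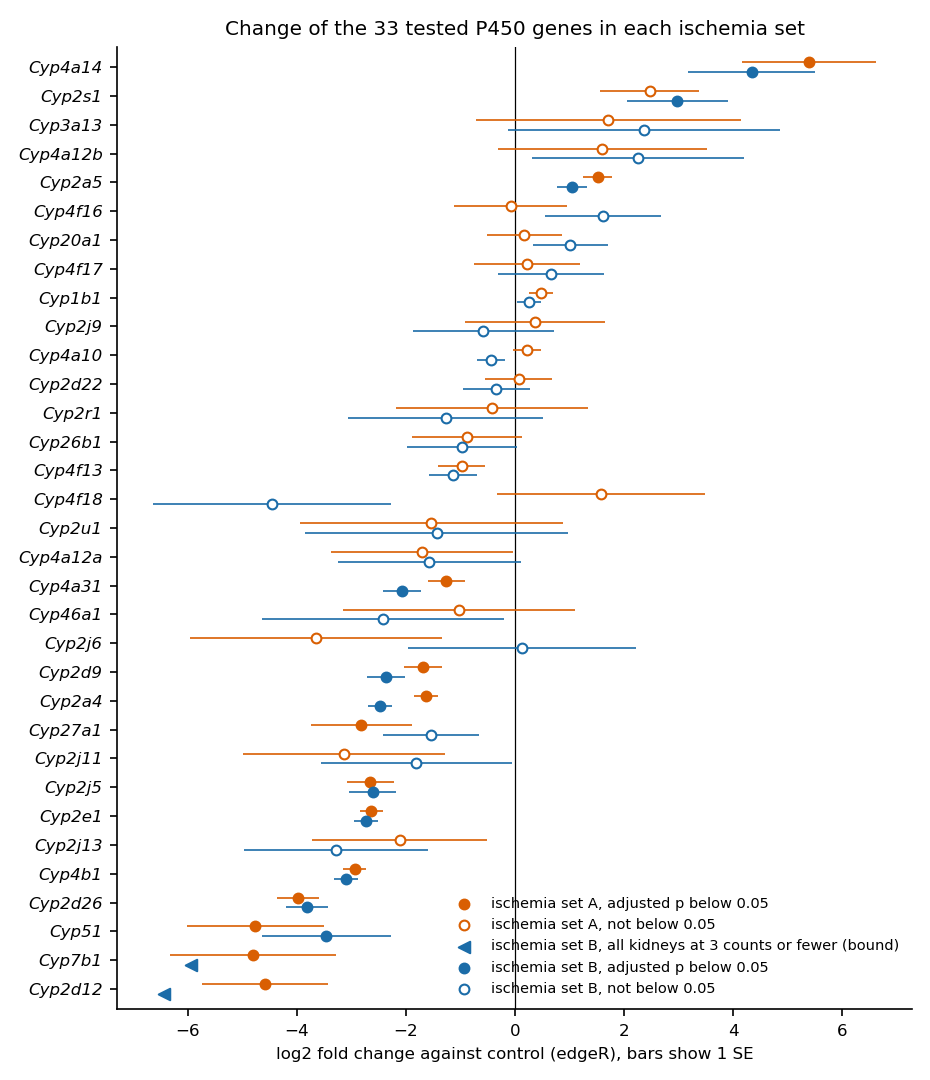
Log2 fold change of each of the 33 tested P450 members against control (horizontal axis, edgeR, bars 1 SE), orange for set A and blue for set B, filled where the adjusted p was below 0.05. For Cyp2d12 and Cyp7b1 in set B the triangle marks the bound that 3 counts per kidney allow, at least 87.1-fold and 61.7-fold lower, in place of a fitted value. Both sets share the control kidneys, and wide bars belong to members of low level.

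Families 1 to 3 held 16 members, all tested, of which 6 fell in both sets, 1 rose in set A and 2 rose in set B, beside the shares of all genes given above. The paired genes Cyp2a4 and Cyp2a5 lie in one cluster on chromosome 7 of mm10 (chr7:26307169-26315088 and chr7:26835305-26843548, both on the plus strand) and moved in opposite directions. Cyp2a4 is known as a testosterone 15-alpha-hydroxylase and Cyp2a5 as the coumarin 7-hydroxylase, an enzyme known to be inducible in injured liver. In the controls Cyp2a4 was at 269, 226, 295 and 285 CPM, against 80.8, 130.2, 68.6 and 65.5 CPM in set A and 56.97, 58.7, 46.2 and 31.5 CPM in set B. The 4 control values of Cyp2a5 were 79.4, 82.02, 98.5 and 144 CPM, those of set A 193, 377, 214 and 373 CPM and those of set B 210.5, 292, 222 and 109 CPM. For Cyp2a4 every control kidney was above every ischemic kidney. For Cyp2a5 every kidney of set A was above every control, and in set B 3 kidneys were above the controls while replicate 4 lay within them. For Cyp2a4 the log2 fold change against control was -1.64 ± 0.22 (SE) for set A and -2.47 ± 0.23 for set B (edgeR adjusted p = 1.22e-05 and 1.08e-07). Against control, Cyp2a5 had log2 fold changes of 1.52 ± 0.27 (SE, set A) and 1.05 ± 0.27 (set B), with edgeR adjusted p = 0.000306 and 0.00715. Without replicate 4 of set B, the Cyp2a5 value in set B was 1.26 (edgeR adjusted p = 0.000355). As a share of the counts of both genes, Cyp2a5 made up 22.8% to 33.6% in the controls, 70.5% to 85.1% among set A kidneys and 77.6% to 83.2% among those of set B. Their sum was 370 ± 52.7, 376 ± 116 and 257 ± 86.6 CPM (SD, n = 4), overlapping between controls and both sets, so the fall of one copy and the rise of the other nearly offset each other in set A.

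The 2 coding sequences are shown because a rise in one copy and a fall in the other can be read only where reads tell them apart. Over 1482 coding bases they differ at 23 (98.45% identity), and 183 of 1383 aligned 100-base windows, the read length, hold no difference, the longest such run being 216 bases. Reads from those stretches fit both genes and cannot be given to one, and how the counting treated them is not given in the sources used here. Over all annotated transcripts, 11.17% of the 100-base windows of Cyp2a4 and 12.14% of those of Cyp2a5 also occur in another gene. The following 100 bases of exon 2, positions 213 to 312 of the coding sequence counted from the start codon, hold 4 differences, printed in capitals (GENCODE vM21 on mm10, plus strand, chr7:26307682-26307781 and chr7:26835827-26835926).
Cyp2a4: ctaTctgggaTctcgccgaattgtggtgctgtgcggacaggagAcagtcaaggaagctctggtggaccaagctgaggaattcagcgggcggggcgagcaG
Cyp2a5: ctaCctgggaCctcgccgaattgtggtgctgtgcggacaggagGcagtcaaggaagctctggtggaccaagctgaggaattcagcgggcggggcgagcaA

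The sequence before the start of the genes is nearly the same as well, and is shown because these 2 genes of one cluster moved in opposite directions. Over 215 bases upstream (RefSeq, GRCm38.p6, plus strand, chr7:26306943-26307157 and chr7:26835089-26835303) the 2 genes differ at 4 bases, printed in capitals.
Cyp2a4: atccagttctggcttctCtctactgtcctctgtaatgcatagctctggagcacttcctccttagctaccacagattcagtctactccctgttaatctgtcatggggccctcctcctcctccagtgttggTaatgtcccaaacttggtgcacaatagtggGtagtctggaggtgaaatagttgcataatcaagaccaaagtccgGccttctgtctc
Cyp2a5: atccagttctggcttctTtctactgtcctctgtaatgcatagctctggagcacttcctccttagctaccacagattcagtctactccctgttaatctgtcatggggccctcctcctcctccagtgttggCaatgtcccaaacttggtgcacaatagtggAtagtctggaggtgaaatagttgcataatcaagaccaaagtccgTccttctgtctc
Promoters (300 bases each) were found for 24 of the 35 members (25 promoters).

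**Figure D3:**
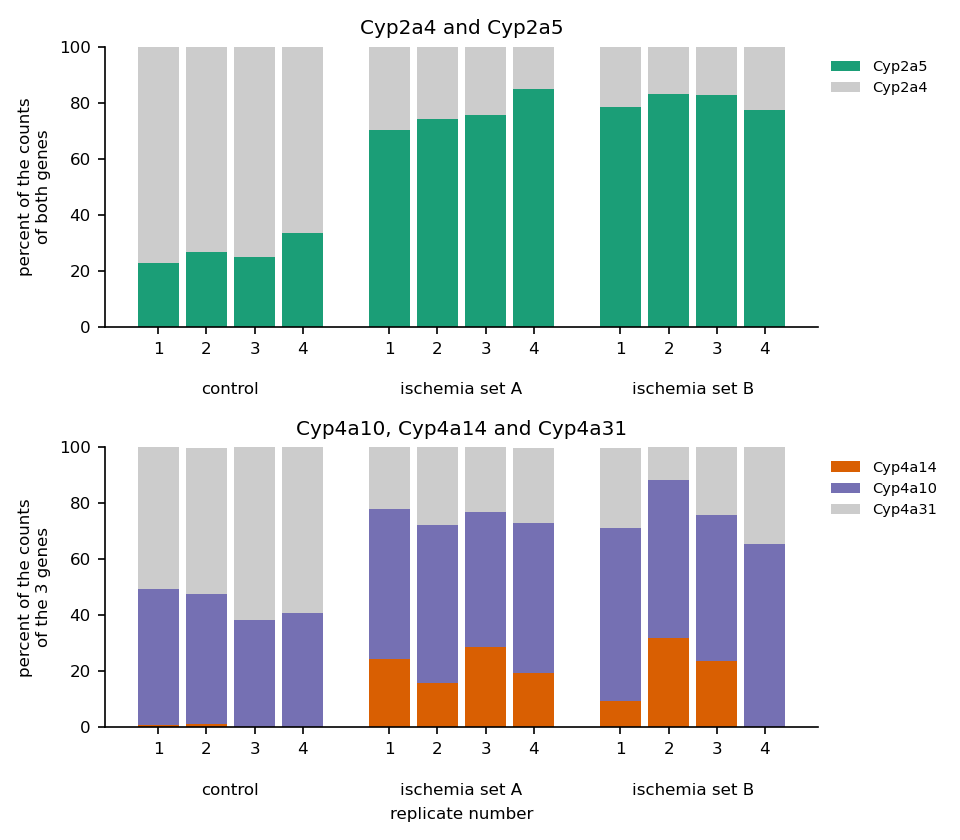
Share of counts within 2 groups of related P450 genes in each kidney (vertical axes, percent of the counts of the genes named, linear from 0 to 100), 4 replicates each of controls, set A and set B. Cyp2a5 makes up 22.8% to 33.6% of its pair in the controls and 70.5% or more in every ischemic kidney, and Cyp4a14 makes up at most 1.13% of its trio in the controls and 15.9% to 28.8% in set A, but 0.301% in replicate 4 of set B.

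Cyp2e1 (chr7:140763739-140774987), which oxidises ethanol and small organic solvents, fell by a similar amount in both sets. Cyp2e1 measured 199, 279.5, 282 and 308 CPM in the controls, 30.4, 57.2, 38.01 and 47.1 CPM in set A and 46.6, 36.7, 47.3 and 29.8 CPM in set B. No ischemic kidney reached the lowest control. Cyp2e1 had a log2 fold change of -2.63 ± 0.21 (SE, edgeR adjusted p = 2.08e-08) for set A, whereas that for set B was -2.74 ± 0.21 (edgeR adjusted p = 1.37e-08). Cyp2j5 (chr4:96628773-96664154), an epoxygenase of arachidonic acid abundant in mouse kidney, fell as well. Cyp2j5 stood at 149, 92.99, 131 and 102 CPM in the controls, at 13.7, 34.8, 15.8 and 11.2 CPM in set A and at 23.3, 24.9, 25.2 and 4.06 CPM in set B. Replicate 4 of set B lay far below the other 3 kidneys of its set. For Cyp2j5 the log2 fold change against control was -2.65 ± 0.43 (SE) for set A and -2.61 ± 0.43 for set B (edgeR adjusted p = 0.000112 and 0.000129). Without that kidney the value in set B was -2.28 (edgeR adjusted p = 1.33e-05). Of the other members of subfamily 2J, the control means of Cyp2j13, Cyp2j11, Cyp2j9 and Cyp2j6 lay between 1.27 and 5.49 CPM and none passed the threshold in either set. Cyp2j13 was below every control in both sets and had log2 fold changes of -2.12 ± 1.60 (SE) in set A and -3.28 ± 1.68 in set B (edgeR adjusted p = 0.43 and 0.186). In set B its only counts came from replicate 1, and without that kidney it passed the threshold (edgeR adjusted p = 0.00415), as it did with limma-trend (adjusted p = 0.00897).

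The 2D genes, mouse relatives of the human drug-metabolising enzyme of that subfamily, form a cluster on chromosome 15, and 3 of the 4 members fell in both sets, beside 11.7% and 11.9% of all genes that fell. In the controls Cyp2d9 was at 83.8, 75.3, 53.9 and 101 CPM, against 23.1, 29.5, 24.04 and 20.8 CPM in set A and 12.97, 26.4, 16.7 and 5.02 CPM in set B. The 4 control values of Cyp2d26 were 62.5, 66.99, 46.1 and 56.97 CPM, those of set A 5.37, 3.895, 2.05 and 3.43 CPM and those of set B 7.11, 3.99, 3.095 and 2.16 CPM. Cyp2d12 measured 9.64, 19.6, 13.6 and 11.8 CPM in the controls, 1.71, 0, 0.485 and 0 CPM in set A and 0, 0.0633, 0 and 0 CPM in set B. In all 3 genes the controls stood above every ischemic kidney, and Cyp2d12 did not pass 3 counts in any kidney of set B, with 2 kidneys of set A at 0. Against control, Cyp2d9 had log2 fold changes of -1.69 ± 0.34 (SE, set A) and -2.36 ± 0.35 (set B), with edgeR adjusted p = 0.000972 and 4.24e-05. Cyp2d26 had a log2 fold change of -3.98 ± 0.39 (SE, edgeR adjusted p = 2.52e-07) for set A, whereas that for set B was -3.82 ± 0.39 (edgeR adjusted p = 4.03e-07). Cyp2d12 had a log2 fold change of -4.59 ± 1.16 (SE, edgeR adjusted p = 0.00621) in set A and was at least 87.1-fold lower than control in set B (edgeR adjusted p = 0.000138), with the bound taken at 3 counts per kidney. Its value in set A was -6.16 without replicate 1 of set A. Without replicate 4 of set B, the value of Cyp2d9 in set B was -2.08 (edgeR adjusted p = 8.45e-06). Cyp2d22 stayed between 1.46 and 17.7 CPM in all kidneys and had log2 fold changes of 0.07 ± 0.61 (SE) and -0.34 ± 0.61 (edgeR adjusted p = 0.968 and 0.794).

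Cyp2s1 (chr7:25802475-25816913), an extrahepatic enzyme of epithelia, was the other member of these families with a call upwards. Cyp2s1 stood at 1.01, 2.13, 1.85 and 0 CPM in the controls, at 5.65, 1.33, 8.55 and 12.2 CPM in set A and at 9.198, 10.8, 7.54 and 11.8 CPM in set B. All kidneys of set B were above all controls, while replicate 2 of set A lay within the controls. For Cyp2s1 the log2 fold change against control was 2.47 ± 0.91 (SE) for set A and 2.98 ± 0.93 for set B (edgeR adjusted p = 0.059 and 0.0249). The call in set B did not survive leaving out control replicate 1 or replicate 2 of set B (edgeR adjusted p = 0.064 and 0.0541), and without replicate 2 of set A or with no filter on low counts the gene passed in set A (edgeR adjusted p = 0.0343 and 0.0477), as it did with DESeq2 and limma-trend (adjusted p = 0.0212 and 0.0383). Cyp1b1 (chr17:79701537-79715061), which hydroxylates oestradiol and polycyclic hydrocarbons and is known from vascular and stromal cells, was among the 8 members with the highest control level and did not pass. In the controls Cyp1b1 was at 51.6, 43.2, 36.97 and 33.2 CPM, against 77.7, 55.8, 55.4 and 39.8 CPM in set A and 47.3, 41.1, 60.5 and 48.1 CPM in set B. Against control, Cyp1b1 had log2 fold changes of 0.47 ± 0.22 (SE, set A) and 0.26 ± 0.22 (set B), with edgeR adjusted p = 0.147 and 0.498. Its share of all P450 counts was 0.85% ± 0.28 in the controls, 5.18% ± 1.85 among set A kidneys and 5.55% ± 1.90 among those of set B (SD, n = 4). Cyp1a1 and Cyp1a2, the classical targets of the aryl hydrocarbon receptor, were at 0 in all 12 kidneys.

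**Figure D4:**
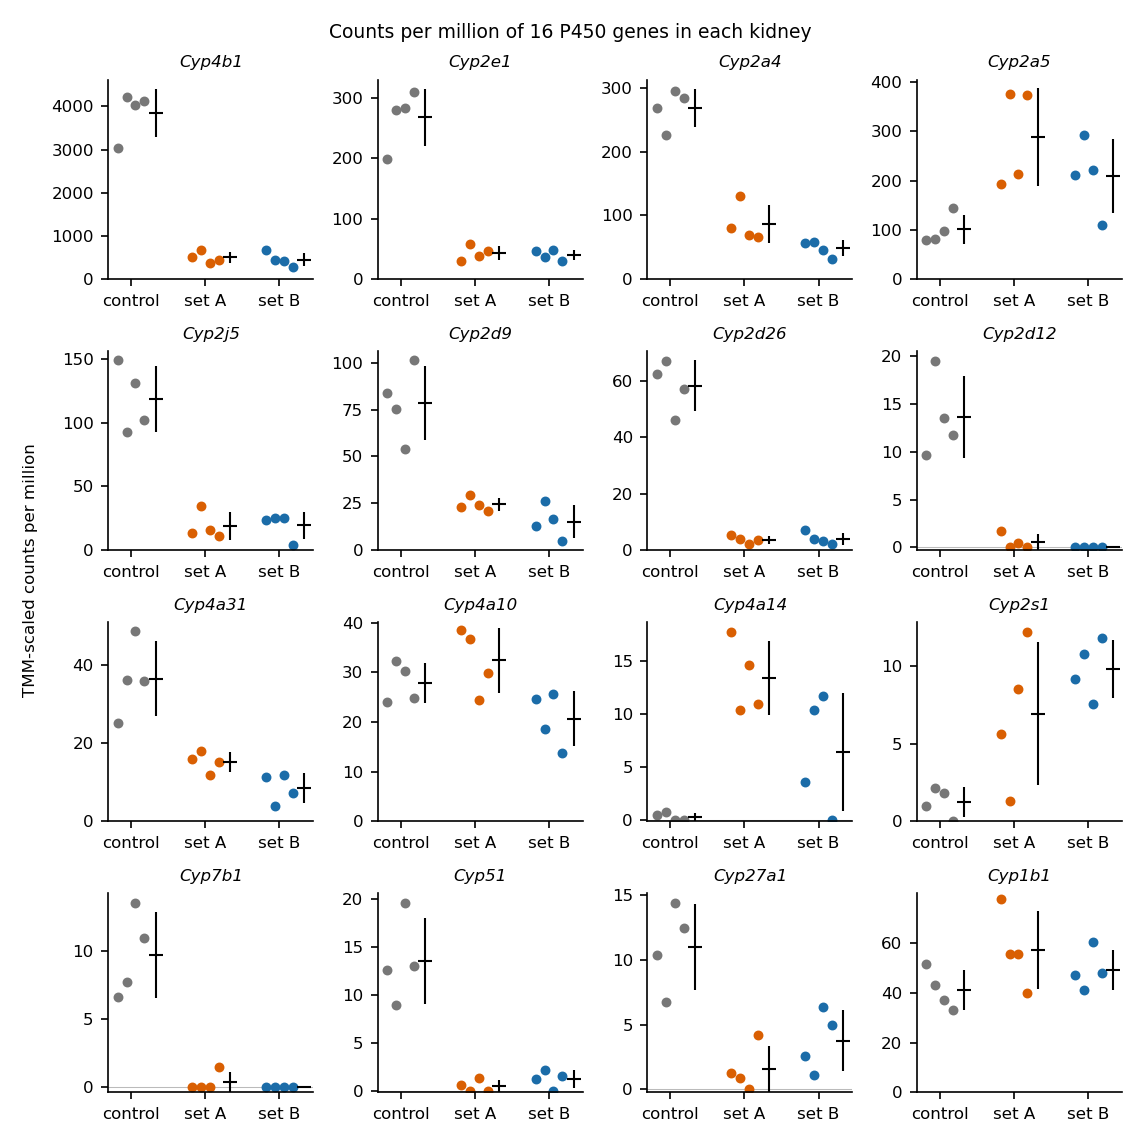
TMM-scaled CPM of 16 P450 members (vertical axes, linear and with a scale of their own in each panel), 1 point per kidney, with a bar for the mean and SD of the 4 kidneys of each group. Cyp2a5, Cyp4a14 and Cyp2s1 are the panels in which ischemic kidneys lie above the controls with an adjusted p below 0.05 in at least 1 set, and Cyp4a10 and Cyp1b1 are the ones that overlap in all groups.

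Family 4 held 10 members, all tested, of which 2 fell and 1 rose in each set, and the share that rose was near that of all genes (10.5% and 10.9%). Cyp4b1 (chr4:115624725-115647723, minus strand), which acts on medium-chain fatty acids and on some plant toxins, was the most abundant P450 of the control kidney, also per length (1707 CPM per kilobase against 155 for Cyp2a4, the next). The 4 control values of Cyp4b1 were 3028, 4222, 4037 and 4117 CPM, those of set A 516, 676, 372 and 441 CPM and those of set B 662, 441, 414 and 288 CPM. The ischemic kidneys lay far below the lowest control, with no overlap. Cyp4b1 had a log2 fold change of -2.94 ± 0.22 (SE, edgeR adjusted p = 6.41e-09) for set A, whereas that for set B was -3.09 ± 0.22 (edgeR adjusted p = 3.56e-09). Its mean CPM was lower by 7.68-fold (set A) and 8.53-fold (set B). Its share of the counts of all members was 74.0% to 80.2% in the controls, 38.8% to 48.4% among set A kidneys and 43.1% to 55.8% among those of set B, so controls and ischemic kidneys did not overlap. Windows shared with other genes (3.4%) came from the 2 pseudogenes Cyp4b1-ps1 and Cyp4b1-ps2.

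The 4A genes omega-hydroxylate arachidonic acid to a vasoactive lipid, 20-HETE in the forms known for it, and are classical targets of the fatty acid receptor PPAR-alpha. They lie side by side on chromosome 4 and did not move together. Cyp4a31 measured 25.2, 36.1, 48.7 and 35.9 CPM in the controls, 16, 18.02, 11.8 and 15.1 CPM in set A and 11.4, 3.796, 11.9 and 7.302 CPM in set B. Cyp4a10 stood at 24.03, 32.2, 30.2 and 24.9 CPM in the controls, at 38.5, 36.6, 24.5 and 29.9 CPM in set A and at 24.6, 18.6, 25.6 and 13.7 CPM in set B. In the controls Cyp4a14 was at 0.4797, 0.7799, 0 and 0 CPM, against 17.8, 10.4, 14.6 and 10.96 CPM in set A and 3.67, 10.4, 11.8 and 0.0635 CPM in set B. Cyp4a31 was lower in every ischemic kidney, Cyp4a10 overlapped in all groups, and Cyp4a14 was above every control in set A and in 3 of 4 kidneys of set B, with replicate 4 of set B within the controls. For Cyp4a31 the log2 fold change against control was -1.26 ± 0.34 (SE) for set A and -2.08 ± 0.35 for set B (edgeR adjusted p = 0.0098 and 0.000155). Against control, Cyp4a10 had log2 fold changes of 0.22 ± 0.26 (SE, set A) and -0.43 ± 0.26 (set B), with edgeR adjusted p = 0.669 and 0.275. Cyp4a14 had a log2 fold change of 5.39 ± 1.23 (SE, edgeR adjusted p = 0.0027) for set A, whereas that for set B was 4.34 ± 1.17 (edgeR adjusted p = 0.0101). Without replicate 4 of set B, the value of Cyp4a14 in set B was 4.75 (edgeR adjusted p = 0.00083), and in a fit of only the 2 groups the call was lost (edgeR adjusted p = 0.072). Without control replicate 2 the values of Cyp4a14 were 6.51 (set A) and 5.44 (set B). The sum of the 3 genes was 64.6 ± 12.4 CPM in the controls, 61.02 ± 9.54 CPM for set A and 35.7 ± 11.8 CPM for set B (SD, n = 4). Cyp4a31 made up 50.7% to 61.7% of their counts in the controls and 11.6% to 34.6% in the ischemic kidneys. No 100-base window of Cyp4a14 occurs in another gene, while 12.16% of those of Cyp4a10 and 7.33% of those of Cyp4a31 do, mainly in Cyp4a32 and in each other. Over their aligned coding bases Cyp4a10 and Cyp4a14 are 76.09% identical. For Cyp4a12a and Cyp4a12b, the pair known for 20-HETE synthesis in male mice, 35.82% and 36.24% of windows are shared, and their counts (control means of 5.32 and 0.42 CPM) are uncertain. Neither passed the threshold in either set.

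The 4F members act on leukotrienes and long-chain fatty acids. Cyp4f13 (chr17:32924688-32947402) was below every control in both sets and missed the threshold. The 4 control values of Cyp4f13 were 16.8, 17.6, 16.7 and 23.8 CPM, those of set A 9.59, 6.08, 6.43 and 16.1 CPM and those of set B 9.67, 3.23, 8.27 and 12.8 CPM. For Cyp4f13 the log2 fold change against control was -0.98 ± 0.43 (SE) for set A and -1.14 ± 0.43 for set B (edgeR adjusted p = 0.125 and 0.0681). Without replicate 4 of set A it passed there (edgeR adjusted p = 0.0435), and without replicate 4 of set B it passed in that set (edgeR adjusted p = 0.0332), as it did with limma-trend (adjusted p = 0.0447). Cyp4f16, Cyp4f17 and Cyp4f18 had control means between 0.92 and 2.86 CPM and did not pass in either set.

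Of the 5 sterol and oxysterol members, 4 were tested, and 3 fell in set A and 2 in set B, beside 11.7% and 11.9% of all genes. Cyp51, the lanosterol demethylase of cholesterol synthesis, Cyp27a1, the mitochondrial sterol 27-hydroxylase, and Cyp7b1, the oxysterol 7-alpha-hydroxylase, were each lower in every ischemic kidney than in any control, as were 15.7% and 15.1% of all genes in set A or set B. Cyp51 measured 12.6, 8.92, 19.6 and 12.96 CPM in the controls, 0.571, 0, 1.32 and 0 CPM in set A and 1.18, 2.21, 0 and 1.52 CPM in set B. Cyp7b1 stood at 6.57, 7.67, 13.5 and 10.9 CPM in the controls, at 0, 0, 0 and 1.45 CPM in set A and at 0.0337, 0, 0 and 0 CPM in set B. In the controls Cyp27a1 was at 10.4, 6.71, 14.4 and 12.5 CPM, against 1.24, 0.899, 0.02203 and 4.16 CPM in set A and 2.59, 1.14, 6.38 and 4.95 CPM in set B. Cyp7b1 had more than 3 counts in 1 of the 8 ischemic kidneys, replicate 4 of set A. Against control, Cyp51 had log2 fold changes of -4.76 ± 1.25 (SE, set A) and -3.46 ± 1.18 (set B), with edgeR adjusted p = 0.00832 and 0.0397. Cyp27a1 had a log2 fold change of -2.82 ± 0.93 (SE, edgeR adjusted p = 0.0346) for set A, whereas that for set B was -1.54 ± 0.89 (edgeR adjusted p = 0.254). Cyp7b1 had a log2 fold change of -4.80 ± 1.52 (SE, edgeR adjusted p = 0.0274) in set A and was at least 61.7-fold lower than control in set B (edgeR adjusted p = 0.00152). The fitted value in set A rests on replicate 4 of that set and moved to -11.08 without it. These calls rest on few counts. The value of Cyp51 in set A was -5.99 without replicate 3 of that set, and that of Cyp27a1 in set A was -3.95 without replicate 4 of that set. The call of Cyp51 in set B was lost without any single kidney of the controls or of set B (edgeR adjusted p = 0.0514 to 0.113), that of Cyp7b1 in set A without control replicate 2, 3 or 4 or set A replicate 1, 2 or 3 (0.0501 to 0.0827), and that of Cyp27a1 in set A without control replicate 1, 3 or 4 or set A replicate 1 or 2 (0.0628 to 0.0918). Summed over the 5 members the level was 35.01, 24.8, 47.5 and 38.3 CPM in the controls, 1.81, 3.51, 3.75 and 5.602 CPM in set A and 7.58, 4.62, 6.38 and 6.54 CPM in set B. Cyp46a1, the cholesterol 24-hydroxylase known from brain, had a control mean of 2.16 CPM and did not pass, and Cyp7a1 and Cyp8b1, the bile acid enzymes of liver, are not members.

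The retinoic acid hydroxylase Cyp26b1 lay between 0.656 and 7.87 CPM in the controls and between 0.698 and 3.07 CPM in the ischemic kidneys, with log2 fold changes of -0.88 ± 1.01 (SE) and -0.96 ± 1.01 (edgeR adjusted p = 0.659 and 0.60). Cyp2r1, a vitamin D 25-hydroxylase, had means of 1.63, 1.21 and 0.67 CPM in controls, set A and set B, and the orphan Cyp20a1 had means of 6.72, 7.54 and 13.6 CPM. Neither passed the threshold. The 6 enzymes of steroid hormone synthesis listed, Cyp11a1, Cyp11b1, Cyp11b2, Cyp17a1, Cyp19a1 and Cyp21a1, were at 0 in every kidney.

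Between the sets, no member differed at an edgeR adjusted p below 0.05, beside 0.00857% of all genes tested that were higher and 0% that were lower in set B. With DESeq2 and with limma-trend the count was also 0, and 6 of 33 members had an unadjusted p below 0.05 with edgeR, beside 5.03% of all genes tested. In a fit of only the 2 sets it was 2 of 27, and without replicate 4 of set B 4 of 35. The share of all genes was not taken in these 2 fits, so these counts have no background beside them. The 6 were Cyp2a4, Cyp2d12, Cyp4a10, Cyp4a31, Cyp4f18 and Cyp7b1, all lower in set B. For Cyp7b1 this direction rests on replicate 4 of set A, without which the fitted difference turned to 1.80 (edgeR adjusted p = 0.952). Cyp2a4 was the only member whose sets did not overlap, beside 1.32% of all genes tested that were lower without overlap and 1.29% higher, with a log2 difference of set B minus set A of -0.84 ± 0.22 (SE, edgeR adjusted p = 0.656), and this does not show that the sets act alike. The log2 differences were -0.65 ± 0.26 for Cyp4a10 and -0.82 ± 0.34 for Cyp4a31 (SE, edgeR adjusted p = 0.941 for both). For other members that fell in both sets, the log2 difference was -0.15 ± 0.20 for Cyp4b1 and -0.10 ± 0.20 for Cyp2e1 (SE, edgeR adjusted p = 1 for both). Leaving out replicate 4 of set B left the count at 0.

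The genes that serve P450 enzymes or control them were read from lists chosen with earlier results known, and their counts stand beside 11.7% (set A) and 11.9% (set B) of all genes tested that fell and 10.5% and 10.9% that rose. Of the electron donors, 8 of 13 listed were tested, none passed in set A, whereas 2 fell and 2 rose in set B. Por, the P450 reductase of the endoplasmic reticulum, fell in set B. The 4 control values of Por were 46.96, 86.1, 55.8 and 99.8 CPM, those of set A 50.95, 51.9, 48.4 and 21.7 CPM and those of set B 36.5, 45.05, 19.3 and 6.603 CPM. For Por the log2 fold change against control was -0.74 ± 0.41 (SE) for set A and -1.43 ± 0.42 for set B (edgeR adjusted p = 0.242 and 0.0173). Set A overlapped the controls through control replicate 1, set B did not overlap them, and the call in set B was lost without control replicate 4 or without replicate 3 of set B (edgeR adjusted p = 0.0642 and 0.0538). Pgrmc1, a heme-binding partner, fell by 0.75 ± 0.22 on the log2 scale in set B (SE, edgeR adjusted p = 0.0182), a call lost without control replicate 2 or 4 or set B replicate 2 (0.0761, 0.0505 and 0.0596). Cyb5r3, a cytochrome b5 reductase, rose in set B by 0.75 ± 0.17 (SE, edgeR adjusted p = 0.00281). Cyb5r1 rose in set B by 0.94 ± 0.32 (edgeR adjusted p = 0.0403), and its call was lost without any 1 of 7 kidneys, replicates 1, 2 and 4 of the controls, replicate 3 of set A and replicates 2, 3 and 4 of set B (0.0554 to 0.123), or with no filter on low counts (0.0509). Fdx1, the mitochondrial ferredoxin, had counts in only 1 control kidney and was not tested.

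Of 15 genes of heme synthesis and breakdown, all tested, 4 fell in both sets and none rose. Alas1, which catalyses the first step and had the highest mean over all 12 kidneys, had means of 132 ± 46.2, 147 ± 10.6 and 130 ± 19.1 CPM (SD, n = 4) and log2 fold changes of 0.16 ± 0.20 and -0.02 ± 0.20 (SE, edgeR adjusted p = 0.697 and 0.966). The 4 that fell were Alad, Urod, Fech and Abcb6. Abcb6, a porphyrin transporter, fell by 0.89 ± 0.18 on the log2 scale in set A and by 1.12 ± 0.18 in set B (SE, edgeR adjusted p = 0.00103 and 0.000115). Fech, which inserts the iron, fell by 0.63 ± 0.18 and by 0.94 ± 0.18 (SE, edgeR adjusted p = 0.015 and 0.000693), and its call in set A was lost without control replicate 4, set A replicate 1 or set A replicate 3 (0.0548, 0.0603 and 0.0598). Alad, the second enzyme of the pathway, fell by 1.06 ± 0.20 and by 0.62 ± 0.20 (SE, edgeR adjusted p = 0.000482 and 0.0277), the latter call being lost without control replicate 3 or 4 or set B replicate 1 or 2 (0.0518 to 0.07).

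Of 25 receptors and factors known to control P450 genes, 19 were tested, 10 fell in both sets, none rose in set A and 1, Nfe2l2, rose in set B. Among the 10 were Rxra, Nr1h3, Hnf4a, Cebpa, Esrra, Vdr and Bcl6. Hnf4a, a nuclear receptor that drives many proximal tubule and liver genes, had the highest level. Hnf4a measured 1426, 1598, 1402 and 1541 CPM in the controls, 432, 754, 565 and 551 CPM in set A and 742, 431, 565 and 262 CPM in set B. No ischemic kidney reached the lowest control. Against control, Hnf4a had log2 fold changes of -1.37 ± 0.22 (SE, set A) and -1.58 ± 0.22 (set B), with edgeR adjusted p = 0.000109 and 2.48e-05. Nr1h3 had a log2 fold change of -1.71 ± 0.41 (SE, edgeR adjusted p = 0.00461) for set A, whereas that for set B was -1.47 ± 0.41 (edgeR adjusted p = 0.0129). Nr1h3 is the oxysterol receptor LXR-alpha. Ppara was named after its values were seen, for its known link to the 4A genes. Ppara stood at 16.1, 13.1, 7.79 and 8.02 CPM in the controls, at 0.381, 5.78, 1.06 and 4.82 CPM in set A and at 5.96, 5.504, 5.51 and 3.49 CPM in set B. For Ppara the log2 fold change against control was -1.91 ± 0.69 (SE) for set A and -1.13 ± 0.68 for set B (edgeR adjusted p = 0.0554 and 0.277). Every kidney of both sets was below every control, and without replicate 2 of set A, without replicate 4 of set B, by DESeq2 and by limma-trend the gene passed in set A (edgeR adjusted p = 0.0322 and 0.0473, DESeq2 0.0299, limma-trend 0.0186). The aryl hydrocarbon receptor Ahr had means of 0.17, 0.12 and 0.53 CPM and was not tested.

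Of 19 genes of neighbouring eicosanoid steps, 15 were tested, and 2 fell in set A, 3 fell in set B and none rose, which in set A is near the share of all genes that fell. Ephx2, the soluble epoxide hydrolase that removes the epoxides made by 2J enzymes, and Hpgd, which inactivates prostaglandins, fell in both sets. In the controls Ephx2 was at 34.97, 63.98, 52.3 and 51.4 CPM, against 5.52, 9.501, 8.77 and 11.6 CPM in set A and 8.15, 10.9, 5.9 and 4.51 CPM in set B. Against control, Ephx2 had log2 fold changes of -2.52 ± 0.33 (SE, set A) and -2.78 ± 0.34 (set B), with edgeR adjusted p = 1.00e-05 and 3.65e-06. Hpgd had a log2 fold change of -3.72 ± 0.91 (SE, edgeR adjusted p = 0.00477) for set A, whereas that for set B was -3.02 ± 0.88 (edgeR adjusted p = 0.0164). Without replicate 1 of set A the value of Hpgd in set A was -4.37. Pla2g6 fell in set B. The 2 listed genes with the highest mean over all 12 kidneys, Ptges3 and Lta4h, had log2 fold changes of 0.15 ± 0.15 and -0.21 ± 0.22 in set A and 0.11 ± 0.15 and 0.22 ± 0.22 in set B (SE, edgeR adjusted p 0.564 to 0.698 in all 4). Of 15 retinoid genes, 10 were tested, with 1 rise and 1 fall in set A and 2 rises and 1 fall in set B, which in set A is near the shares of all genes. Aldh1a2, which makes retinoic acid, rose, and Dhrs3, which turns retinaldehyde back to retinol, fell. The 4 control values of Aldh1a2 were 0.04797, 1.61, 2.31 and 0.679 CPM, those of set A 40.9, 19.9, 29.4 and 5.42 CPM and those of set B 18.2, 24.04, 16.01 and 8.32 CPM. Dhrs3 measured 60, 71.4, 50.05 and 43.2 CPM in the controls, 10.5, 9.89, 7.47 and 6.02 CPM in set A and 9.13, 7.34, 11.4 and 8 CPM in set B. All ischemic kidneys lay outside the controls for both genes. For Aldh1a2 the log2 fold change against control was 4.35 ± 0.73 (SE) for set A and 3.82 ± 0.71 for set B (edgeR adjusted p = 0.000159 and 0.000466). Against control, Dhrs3 had log2 fold changes of -2.73 ± 0.28 (SE, set A) and -2.65 ± 0.28 (set B), with edgeR adjusted p = 5.19e-07 and 8.18e-07. Of 6 aryl hydrocarbon receptor targets other than P450 genes, 3 were tested, of which 2 rose in set A and 1 in set B, beside the shares of all genes given above. Of those not tested, Ahrr and Aldh3a1 were at 0 in all 12 kidneys and Ugt1a6a did not pass 1.49 CPM in any. Gsta1 had 3 counts or fewer in every control and was higher by at least 39.7-fold in set A kidneys and 35.1-fold in those of set B (edgeR adjusted p = 0.000276 and 0.000329). Nqo1 had a log2 fold change of 1.62 ± 0.41 (SE, edgeR adjusted p = 0.00622) for set A, whereas that for set B was 0.98 ± 0.41 (edgeR adjusted p = 0.0932). In DESeq2 and without replicate 3 of set B, Nqo1 also passed in set B (adjusted p = 0.0496 and 0.0495). Tiparp, the other one tested, had log2 fold changes of 0.24 ± 0.34 and 0.06 ± 0.34 (SE, edgeR adjusted p = 0.736 and 0.95).

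**Figure D5:**
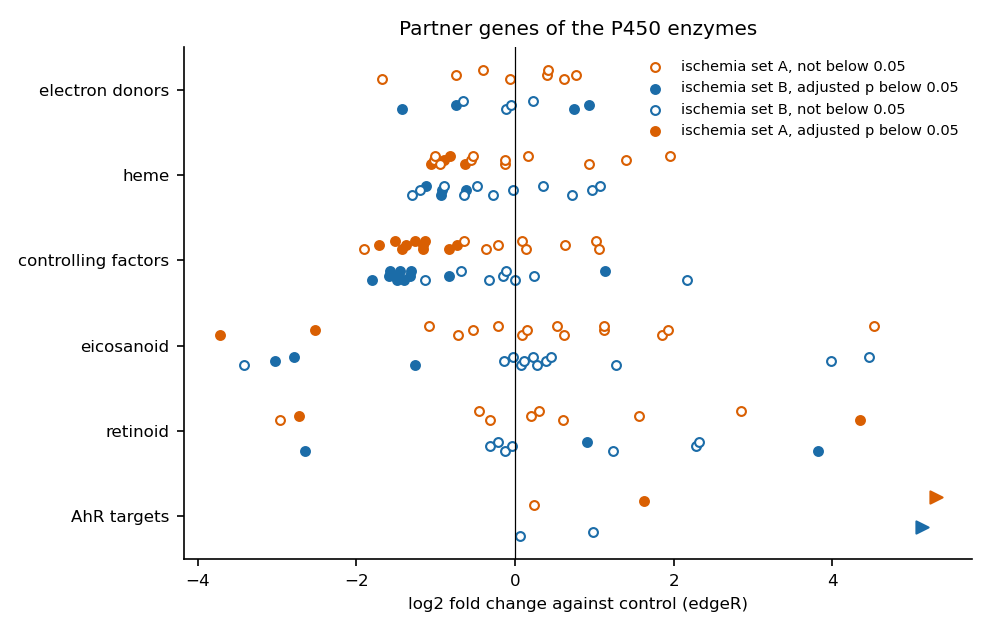
Log2 fold change against control (horizontal axis, edgeR) of the tested genes of 6 lists of P450 partners, 1 point per gene, orange for set A and blue for set B, filled where the adjusted p was below 0.05; points are spread vertically only for legibility. The triangles are bounds for Gsta1, whose controls were all at 3 counts or fewer, and the filled points of the heme and controlling factor lists lie to the left of 0 in set A.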

How the data were processed

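RNA of 12 kidneys (4 controls, 4 of set A, 4 of set B) was read from the table of raw counts per gene deposited by the authors, who prepared stranded mRNA libraries, sequenced single reads of 100 bases, mapped them to mm10 with STAR and counted them with HTSeq. Versions, the annotation release, the strand setting and the treatment of reads that fit several genes are not given in the sources used here. Counts were filtered with the default of edgeR 4.0.16 (R 4.3.3), scaled by TMM and fitted with a coefficient per group; two-sided quasi-likelihood F-tests were adjusted by Benjamini and Hochberg over 11664 genes with a threshold of 0.05. CPM are TMM-scaled, positions are from GENCODE vM21 and promoters from RefSeq. Alternatives were DESeq2 1.42.0, limma-trend (limma 3.58.1), RLE size factors, 2 other filters, a fit of 2 groups, the replicate block and each kidney left out. In simulated counts for set A, 34 of 100 genes changed by 1 and 71 of 100 changed by 2 on the log2 scale were recovered. Nothing in the labels ties libraries to separate cultures or litters beyond 1 kidney each, so p-values measure the spread between these kidneys. The members and all lists were chosen with earlier results of these data known. Values in every kidney are given for the members with the highest control level, the largest rises and falls past the threshold, and those that reached 3 counts or fewer throughout a group; other lists give up to 4 genes, by level or size of change, and Ppara in addition. Some genes of the list of controlling factors are counted but not reported here by name. Python 3.11.15, pandas 2.3.3, SciPy 1.17.1 and matplotlib 3.10.9 were used.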

Additional observations from a re-analysis of the deposited data

Results flagged for a closer look

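Of 55 groups of 4 kidneys checked for a kidney far from the other 3, 4 held one, and chance alone flags about 1 in 20 groups. Cyp4b1 in control replicate 1 was at 3028 CPM, with the other controls at 4222, 4037 and 4117 CPM, and the summed P450 level of that kidney was 4090 CPM, with the others between 5176 and 5343. Cyp2j5 in replicate 4 of set B was at 4.06 CPM, with the others at 23.3, 24.9 and 25.2 CPM. Cyp4f13 in control replicate 4 was at 23.8 CPM, with the others between 16.7 and 17.7. No explanation was tested.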

How the results depend on the processing

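The counts of members that rose or fell stayed within 1.5 times the reported value in all alternatives run. With each kidney left out they ranged from 2 to 3 higher and 9 to 12 lower for set A against control, from 2 to 3 higher and 9 to 10 lower for set B against control, and were 0 between the sets. Summed P450 CPM ranged from 4844 to 5262 for the controls, from 1033 to 1227 for set A and from 863 to 1055 for set B. Of 1517 alternatives for 80 single gene results, 1454 kept direction and side of the threshold, 45 lost the call, 17 gained one and 1 reversed. The reversal was Cyp7b1 in set B against set A, which ranged from -6.20 to 1.80 on the log2 scale over the kidneys left out and was 1.80 without replicate 4 of set A, the only kidney of either set with more than 3 counts. Same-numbered kidneys did not deviate together (12 correlations from -0.055 to 0.045), and pairs of different number ranged from -0.062 to 0.076. With 4 kidneys per group this cannot exclude a pairing by animal or batch, and the labels give none. With the replicate block the counts were 2 higher and 11 lower in set A, 2 higher and 10 lower in set B, and 0 between the sets; the calls of Cyp51 and Cyp2s1 in set B were lost (edgeR adjusted p = 0.106 and 0.0513) and that of Cyp4f13 in set B was gained (edgeR adjusted p = 0.0337). The block also moved 3 called values of set A by over 1.5 times, to -7.52 for Cyp7b1, -5.57 for Cyp2d12 and 6.38 for Cyp4a14. With limma-trend 11 called single gene values moved by over 1.5 times, those of Cyp2d12, Cyp7b1, Cyp51 and Gsta1 in both sets, Cyp27a1 in set A, and Cyp4a14 and Cyp2s1 in set B, with each call kept. The SE passed 1 on the log2 scale in 15 of the 18 tested members with a control mean at or under 10 CPM and in 2 of the 15 above, in both sets; whether depth or the spread between kidneys sets it was not tested.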
